A study of Mus musculus with 8 samples.

Results

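The primitive streak and mesendoderm transcription factors T, Eomes, Mixl1, Mesp1, Gsc, Foxa2, Lhx1, Evx1, Tbx6 and Cdx1 were followed through both perturbations of mouse embryonic stem cells in the study. The 10 genes were taken by symbol, and all 10 are present among the 24421 gene symbols of each count table. Expression was measured by sequencing polyA RNA, in 8 libraries that form 4 groups of 2. By its title, the study concerned SUMO modification of linker histone H1 and embryonic cell identity, and Ubc9 is the enzyme that conjugates SUMO. Ubc9-depleted cells of the v6.5 embryonic stem cell line received doxycycline (DOX) for 72 hours, and were set against Ubc9-WT control cells of the same line. H1-TKO cells, without the linker histone variants H1.2, H1.3 and H1.4, were set against H1-WT control cells, both from lines of an earlier publication. All 4 groups were grown in 2i/LIF, a medium with inhibitors of MEK and GSK3 and the cytokine LIF, in which stem cells stay in a naive pluripotent state. The labels do not give the construct behind the depletion, whether the Ubc9-WT cells received DOX, the number of clones behind the H1 lines, or whether a group's libraries are separate cultures, so p-values measure the spread between these libraries only.

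The primitive streak forms in the epiblast at gastrulation, when cells that receive Nodal, Wnt, BMP and FGF signals leave the epithelium and become mesoderm or definitive endoderm. The T-box factors T (brachyury), Eomes and Tbx6, the homeobox factors Mixl1, Gsc, Lhx1, Evx1 and Cdx1, the forkhead factor Foxa2 and the basic helix-loop-helix factor Mesp1 mark successive or regional parts of that process. In naive embryonic stem cells these genes are mostly silent or low, and Wnt signalling, which a GSK3 inhibitor mimics, is known to raise T and Cdx1.

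Libraries held between 44441713 and 102780141 counts, so that 3 counts, taken here as the floor of detection, correspond to between 0.0299 and 0.0685 CPM (counts divided by the TMM-scaled library size and given per 1000000). Such floors cover counting error only. Hist1h1c, Hist1h1d and Hist1h1e, which encode the deleted histones, had 0 counts in both H1-TKO libraries and between 100 and 231 counts in the H1-WT libraries. The 10 stem cell markers carried counts in all 8 libraries and summed to 5258 and 5344 CPM in Ubc9-depleted libraries, 5611 and 5831 CPM in Ubc9-WT, 11719 and 11604 CPM in H1-TKO and 6389 and 6965 CPM in H1-WT libraries. After Ubc9 depletion 1 of the 10 was called higher (Utf1) and 1 lower (Tfcp2l1), beside 21.1% and 15% of all tested genes. Between H1 groups 1 was called higher, beside 8.59% of all tested genes. It was Tfcp2l1, named after its values were seen, with 5415 and 4913 CPM in H1-TKO libraries, against 1778 and 1611 CPM in H1-WT libraries. Ubc9-depleted library 1 stood apart from its partner. Of 5911 genes that had no more than 1 count in either Ubc9-WT library, 86.6% had counts in Ubc9-depleted library 1 and 29.5% in Ubc9-depleted library 2. The log2 ratio of the 2 libraries of a group had an SD over genes of 0.22 in H1-TKO cells and 0.49 in H1-WT cells, so the H1-WT libraries lay further apart.

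T, Gsc and Eomes are the members below Cdx1 in level whose changes the results turn on, and the windows around their transcription starts are shown for what they share and do not share. Each runs 5′ to 3′ from 250 bases before to 50 bases after the start, from RefSeq on GRCm38.p6, and capitals mark CpG dinucleotides. T, on the plus strand at chr17:8434173-8434472, has 17 CpGs, Gsc, on the minus strand at chr12:104473187-104473486, has 25, and Eomes, on the plus strand at chr9:118477939-118478238, has 10.
T: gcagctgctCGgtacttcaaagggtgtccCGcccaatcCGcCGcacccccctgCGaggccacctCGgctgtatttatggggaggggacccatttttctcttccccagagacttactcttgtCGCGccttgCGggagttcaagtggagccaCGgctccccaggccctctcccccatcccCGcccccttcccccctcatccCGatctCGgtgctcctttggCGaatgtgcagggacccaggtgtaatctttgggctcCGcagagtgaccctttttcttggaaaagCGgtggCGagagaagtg
Gsc: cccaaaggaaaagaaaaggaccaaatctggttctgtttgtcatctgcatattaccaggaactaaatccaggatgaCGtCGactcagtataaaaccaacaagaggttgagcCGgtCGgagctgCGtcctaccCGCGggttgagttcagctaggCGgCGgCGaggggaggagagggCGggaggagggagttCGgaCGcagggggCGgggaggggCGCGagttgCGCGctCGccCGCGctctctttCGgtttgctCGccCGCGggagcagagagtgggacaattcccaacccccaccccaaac
Eomes: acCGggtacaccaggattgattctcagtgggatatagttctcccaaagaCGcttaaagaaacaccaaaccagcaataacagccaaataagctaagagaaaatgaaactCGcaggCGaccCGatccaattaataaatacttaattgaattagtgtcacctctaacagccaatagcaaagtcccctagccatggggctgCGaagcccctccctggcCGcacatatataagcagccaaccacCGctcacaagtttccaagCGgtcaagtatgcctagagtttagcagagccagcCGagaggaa
With a GC content of at least 50% and an observed-over-expected CpG ratio of at least 0.6, 33.5% of the 32851 windows in the table are CpG-rich. The T window (61.7% GC, ratio 0.607) and the Gsc window (60.3% GC, ratio 0.934) met both limits, and the Eomes window (47.3% GC, ratio 0.607) met only the second. Windows of 8 of the 10 members, taken by symbol, were examined. Mixl1 and Cdx1 were not part of this search, so nothing is said of their windows. On either strand, the Tcf/Lef core CTTTGAT is in 3.73% of all windows, the T-box site AGGTGTGA in 1.28% and the Foxh1 site AATCCACA in 0.855%, and none of the 3 is in the T, Gsc or Eomes window. Among the other members, the Mesp1 window holds 1 Tcf/Lef core and 1 T-box site, and 1 of 3 windows of Foxa2 holds a Tcf/Lef core. These matches are descriptions of letters in the windows only.

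The level of the 10 genes differed widely within every group. To set genes beside each other, CPM was divided by exonic length in kilobases from GENCODE M21 on GRCm38. On this scale Cdx1 was first in every group, with 6.98 ± 0.74 CPM per kb in Ubc9-depleted cells and 14.2 ± 1.81 in Ubc9-WT cells, and 21.6 ± 1.63 in H1-TKO cells and 73.8 ± 29.4 in H1-WT cells (mean ± SD of n = 2 libraries in every group). Gsc, Eomes and T followed in that order in both Ubc9 groups. They had 2.18 ± 0.16, 1.49 ± 0.25 and 0.651 ± 0.072 CPM per kb in Ubc9-depleted cells, against 4.37 ± 0.75, 2.04 ± 0.032 and 1.24 ± 0.093 in Ubc9-WT cells. Mixl1 and Tbx6 did not differ from each other beyond their spread in either group, nor did T and Mixl1 in Ubc9-depleted cells. Mixl1 and Tbx6 had 0.650 ± 0.22 and 0.484 ± 0.089 CPM per kb in Ubc9-depleted cells, against 0.495 ± 0.0091 and 0.467 ± 0.098 in Ubc9-WT cells.

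Eomes was second in both H1 groups, with 9.31 ± 0.15 CPM per kb in H1-TKO cells and 4.19 ± 0.42 in H1-WT cells. Gsc and T followed in H1-TKO cells with 0.742 ± 0.16 and 0.566 ± 0.29 CPM per kb, against 1.85 ± 0.89 and 2.27 ± 0.066 in H1-WT cells, and within each group the pair did not differ beyond its spread. Mixl1 had 0.432 ± 0.24 CPM per kb in H1-TKO cells and 1.20 ± 0.015 in H1-WT cells. Evx1, Foxa2, Mesp1 and Lhx1 had group means of at most 0.0845 CPM per kb in both control groups. Levels were ordered only within a table, since the Ubc9 and H1 libraries came from different kits.

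**Figure D1:**
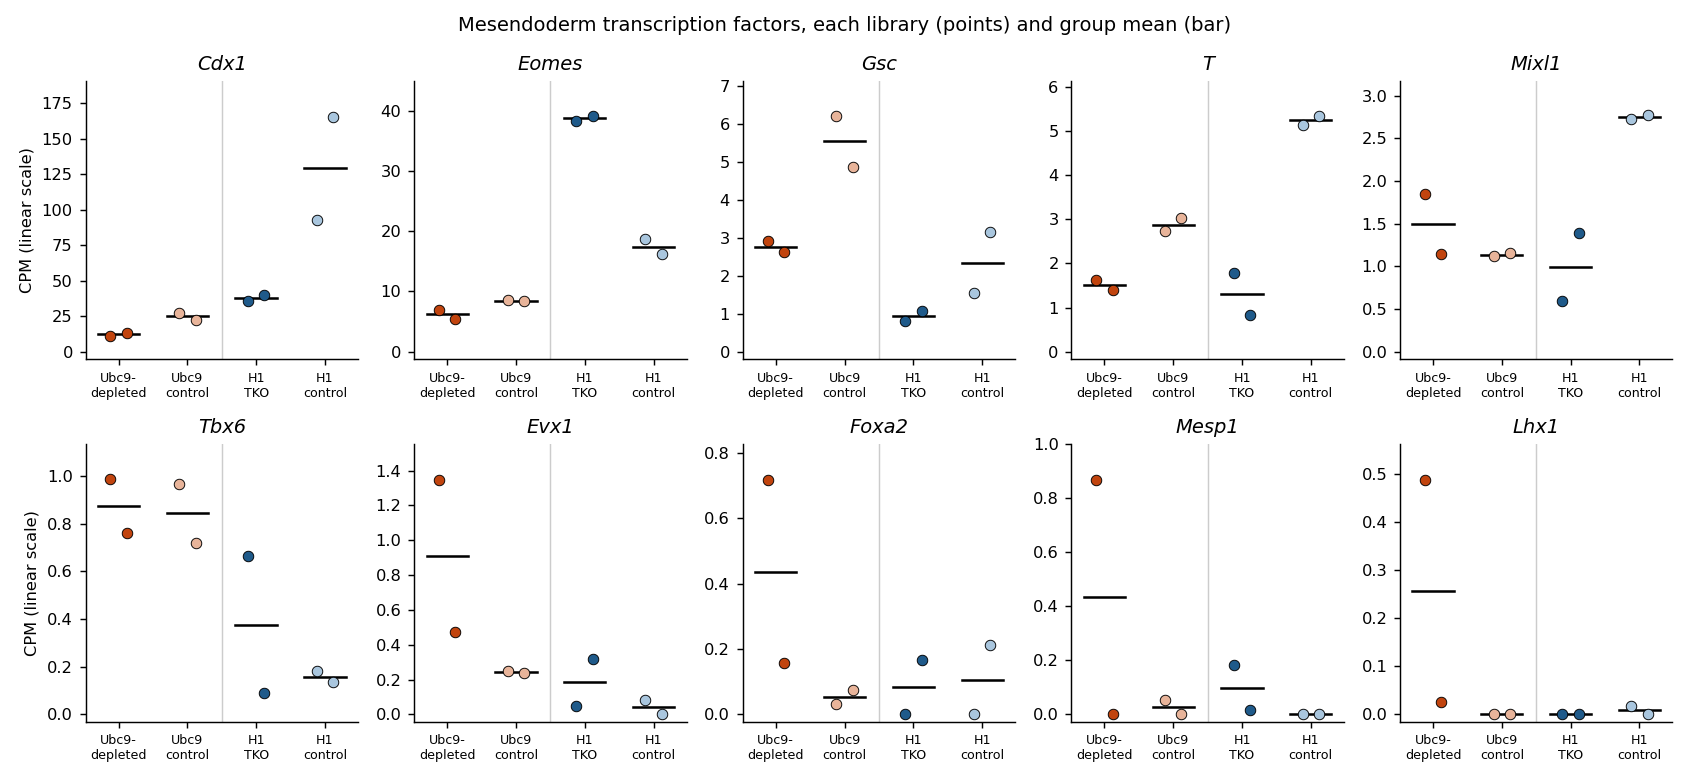
CPM of each member (linear vertical axis, own scale per panel) in the 2 libraries of each group, as points, with the group mean as a bar. Cdx1, Gsc and T lie lower in both perturbed groups than in their controls without overlap, Eomes lies lower in Ubc9-depleted and higher in H1-TKO cells, and the Mesp1 and Lhx1 counts of Ubc9-depleted cells come almost wholly from library 1.

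The first comparison asks which of these genes change when Ubc9 is depleted. Cdx1, Gsc, T and Eomes were lower in Ubc9-depleted cells and Foxa2 was higher, while Mixl1, Tbx6 and Evx1 missed the threshold. Mesp1 and Lhx1, whose counts lay almost wholly in Ubc9-depleted library 1, did not pass the filter on low counts and were not tested. Thus 4 of 8 tested members fell, where 15% of all 16499 tested genes fell, and 1 rose, where 21.1% of all tested genes rose (edgeR quasi-likelihood test, adjusted after Benjamini and Hochberg over all genes, threshold 0.05). The 1 that rose, Foxa2, passed the filter on low counts through the Ubc9-depleted libraries, so nothing is read from that count. The median log2 fold change of the 8 tested members was -0.20, beside 0.06 over all tested genes. With libraries scaled by their totals alone the median of all genes moved to 0.25, that of the members to 0.0032, and only Cdx1 was still called. The members' median took the other sign without Ubc9-depleted library 2 (0.39), Ubc9-WT library 1 (0.30) or Ubc9-WT library 2 (0.098), and in DESeq2 (0.16), without the filter (0.19) and with all 8 libraries in 1 fit (0.039), where 9 or 10 members were tested.

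Cdx1, a caudal-type homeobox factor that patterns the posterior body (minus strand of chromosome 18, 61018862 to 61036199), had 11.3 and 13.1 CPM in Ubc9-depleted libraries 1 and 2, against 27.0 and 22.6 CPM in Ubc9-WT libraries 1 and 2. Both Ubc9-depleted libraries lay below both controls. The log2 fold change was -1.02 ± 0.12 (± SE, edgeR adjusted p = 5.4e-08), and the call held without any 1 of the 4 libraries. In bulk RNA, here and below, fewer cells of a type and less RNA per cell cannot be told apart.

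Gsc, the homeobox factor of the anterior streak and organizer (minus strand of chromosome 12, 104471209 to 104473330), had 2.91 and 2.62 CPM in Ubc9-depleted libraries, against 6.21 and 4.87 CPM in Ubc9-WT libraries. The groups did not overlap, and the log2 fold change was -0.999 ± 0.24 (edgeR adjusted p = 0.0016). The edgeR adjusted p was 0.30 without Ubc9-WT library 1, 0.060 with scaling by totals and 0.11 with all 8 libraries in 1 fit.

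T, which drives posterior mesoderm and notochord formation (plus strand of chromosome 17, 8434423 to 8442496), had 1.62 and 1.39 CPM in Ubc9-depleted libraries, against 2.73 and 3.03 CPM in Ubc9-WT libraries. The groups did not overlap, with a log2 fold change of -0.93 ± 0.36 just inside the threshold (edgeR adjusted p = 0.045). That call was lost without Ubc9-WT library 1 (edgeR adjusted p = 0.42) or 2 (0.58), with totals (0.21), without the filter (0.078), with all 8 libraries in 1 fit (0.13) and in DESeq2 (adjusted p = 0.086).

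Eomes, which directs definitive endoderm and early mesoderm (plus strand of chromosome 9, 118478212 to 118486132), changed least of the called members. It had 6.92 and 5.43 CPM in Ubc9-depleted libraries, against 8.56 and 8.38 CPM in Ubc9-WT libraries. The log2 fold change was -0.45 ± 0.15 (edgeR adjusted p = 0.022). The other 7 of 8 trophectoderm markers, a tissue in which Eomes also acts, summed to 71.1 and 82.4 CPM in Ubc9-depleted libraries, against 92.0 and 103 CPM in Ubc9-WT libraries. Most of this was Tfap2c (55.5 and 69.4, against 76.6 and 86.4 CPM). Of 7 tested markers, Eomes among them, 4 fell and 0 rose, beside 15% and 21.1% over all genes. Krt8, Krt18 and Hand1 were not called and lay higher in Ubc9-depleted cells. The part of the other markers in the Eomes value was not tested. The Eomes log2 fold change was -0.25 with scaling by totals (edgeR adjusted p = 0.38), and the call was also lost without Ubc9-WT library 1 (0.28) or 2 (0.24), with all 8 libraries in 1 fit (0.12) and in DESeq2 (adjusted p = 0.13). The antisense gene Gm33460 overlaps the 3′ end of Eomes in GENCODE M21 and Evx1os overlaps Evx1, and whether the deposited counts used strand is not given in the sources used here, so reads of these pairs cannot be told apart.

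**Figure D2:**
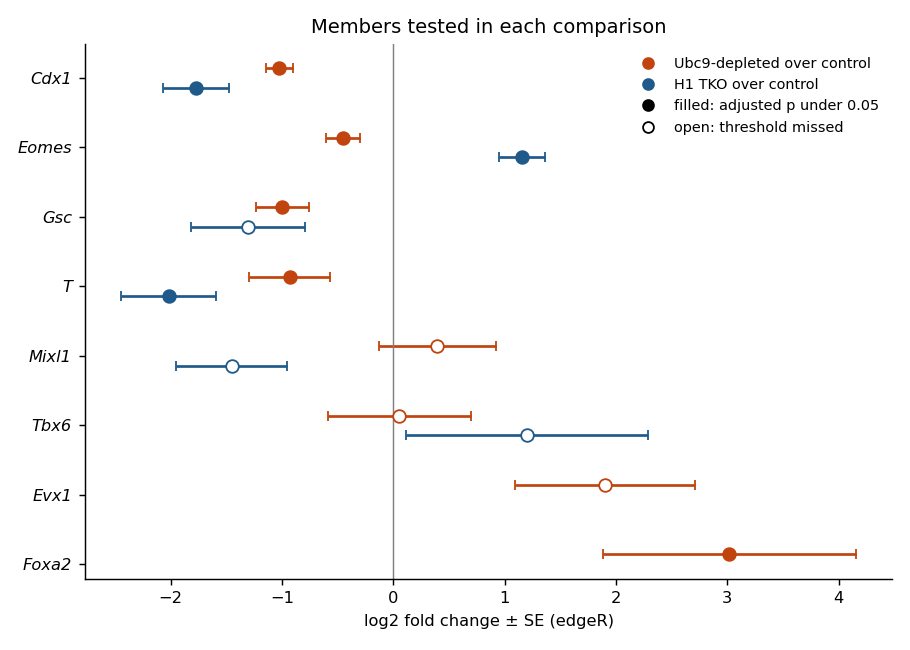
Log2 fold change with its SE (horizontal axis) of the 8 members tested in at least 1 comparison, Ubc9-depleted over control above and H1 TKO over control below in each row, filled where the adjusted p is under 0.05. Cdx1 and T are filled and negative in both, and Eomes is filled on opposite sides of 0.

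Mixl1 and Tbx6 were detected in every Ubc9 library without a difference past the threshold. Mixl1, a paired-like homeobox factor of the streak and endoderm (minus strand of chromosome 1, 180693043 to 180697034), had 1.84 and 1.14 CPM in Ubc9-depleted libraries, against 1.12 and 1.15 CPM in Ubc9-WT libraries. Ubc9-depleted library 2 lay within the controls and library 1 above them, and the log2 fold change was 0.40 ± 0.53 (edgeR adjusted p = 0.58), or -0.0012 without Ubc9-depleted library 1. Tbx6, a T-box factor of paraxial mesoderm (plus strand of chromosome 7, 126781483 to 126785560), had 0.987 and 0.760 CPM in Ubc9-depleted libraries, against 0.967 and 0.717 CPM in Ubc9-WT libraries. The ranges overlapped, with a log2 fold change of 0.05 ± 0.64 (edgeR adjusted p = 0.96).

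Foxa2, Evx1, Mesp1 and Lhx1 were highest in Ubc9-depleted library 1. Foxa2, a forkhead factor of the anterior streak, node and endoderm (minus strand of chromosome 2, 148042877 to 148046969), had 72 and 12 counts in Ubc9-depleted libraries 1 and 2, against 3 and 7 counts in Ubc9-WT libraries. In CPM these were 0.718 and 0.157, against 0.0309 and 0.0760, and the log2 fold change was 3.02 ± 1.14 (edgeR adjusted p = 0.038). Without Ubc9-depleted library 1 its log2 fold change was 1.54 (edgeR adjusted p = 0.24). The Foxa2 call was lost too without Ubc9-WT library 1 (edgeR adjusted p = 0.69) or 2 (0.60), with totals (0.059), without the filter (0.19), with all 8 libraries in 1 fit (0.29) and in DESeq2 (adjusted p = 0.12).

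Evx1, a homeobox factor of the posterior streak that lies beside the HoxA cluster (plus strand of chromosome 6, 52313498 to 52318378), had 135 and 36 counts in Ubc9-depleted libraries, against 24 and 22 counts in Ubc9-WT libraries. Its log2 fold change of 1.90 ± 0.81 missed the threshold (edgeR adjusted p = 0.066), although both Ubc9-depleted libraries lay above both controls in CPM (1.35 and 0.471, against 0.247 and 0.239). Mesp1, a basic helix-loop-helix factor of nascent and cardiac mesoderm (minus strand of chromosome 7, 79792241 to 79793788), had 87 counts in Ubc9-depleted library 1 and 0 in library 2, against 5 and 0 counts in Ubc9-WT libraries. Lhx1, a LIM homeobox factor of the anterior mesendoderm (minus strand of chromosome 11, 84518284 to 84525535), had 49 and 2 counts in Ubc9-depleted libraries, against 0 counts in both Ubc9-WT libraries. Against a floor of 3 counts over the control group, Lhx1 was at least 18.2-fold higher in Ubc9-depleted cells, a bound that rests on library 1. Without Ubc9-depleted library 2, Mesp1 and Lhx1 entered the test through library 1 alone. With library 1 left out they were too low to enter it, so nothing is read from the calls of these fits. With each library left out in turn, log2 fold changes ran from 1.54 to 3.73 for Foxa2 and 0.95 to 2.39 for Evx1.

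Reads on genes silent in the controls give the scale of these values. In Ubc9-depleted library 1 the same 5911 silent genes had a median of 0.0729 CPM per kb and a 90th percentile of 0.274. Lhx1, at 0.120 CPM per kb in that library, lay above 66.4% of those genes. Foxa2, at 0.303, lay above 91.3%, Evx1, at 0.468, above 95.5%, and Mesp1, at 0.680, above 97.6%. Lhx1 is itself 1 of the 5911, while Foxa2, Evx1 and Mesp1 had more than 1 count in a Ubc9-WT library and are not. In Ubc9-depleted library 2 the silent genes had a median of 0 and a 90th percentile of 0.0202 CPM per kb, where Foxa2 had 0.0663, Evx1 0.164, Lhx1 0.00643 and Mesp1 0 CPM per kb. The part of this library's reads on silent genes in the values of the low members was not tested.

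**Figure D3:**
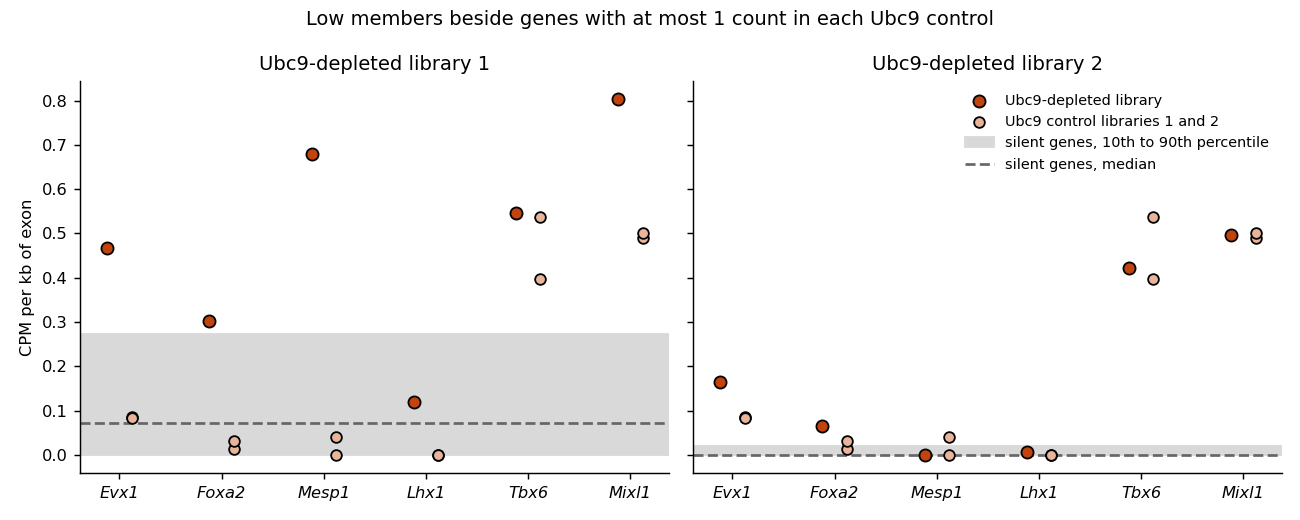
Level per kilobase of exon (vertical axis) of 6 low members in Ubc9-depleted library 1 (left panel) and 2 (right panel), beside both Ubc9-WT libraries. The shaded band spans the 10th to 90th percentile of genes silent in the controls, up to 0.274 CPM per kb in library 1 and 0.0202 in library 2, and Lhx1 lies inside it in both panels.

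The second comparison asks the same of cells without H1.2, H1.3 and H1.4. T and Cdx1 were lower in H1-TKO cells and Eomes was higher. Mixl1, Gsc and Tbx6 missed the threshold, and Foxa2, Mesp1, Lhx1 and Evx1 were too low to be tested. Of the 6 tested members 2 fell, where 8.43% of 14800 tested genes fell, and 1 rose, where 8.59% rose (same edgeR test and adjustment). The median log2 fold change of the 6 was -1.38, beside -0.02 over all tested genes. It was -0.90 over 8 members without H1-TKO library 1 and -0.71 over 7 without H1-WT library 2, and it was -0.79 over 10 members without the filter and -0.20 over 9 with all 8 libraries in 1 fit.

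T had 1.78 and 0.839 CPM in H1-TKO libraries 1 and 2, against 5.14 and 5.35 CPM in H1-WT libraries 1 and 2. Both H1-TKO values lay well below the controls, which differed little from each other, and the log2 fold change was -2.02 ± 0.43 (edgeR adjusted p = 0.020). Without H1-TKO library 2, the lower of the pair, it was -1.56 (edgeR adjusted p = 0.11).

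Cdx1 had 35.8 and 39.9 CPM in H1-TKO libraries, against 92.8 and 165 CPM in H1-WT libraries. The H1-WT libraries were far apart, but both lay above the H1-TKO libraries, and the log2 fold change was -1.77 ± 0.30 (edgeR adjusted p = 0.0084). The call held without any 1 of the 4 libraries, with log2 fold changes between -2.12 and -1.30.

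Eomes had 38.2 and 39.1 CPM in H1-TKO libraries, against 18.6 and 16.2 CPM in H1-WT libraries. The groups did not overlap, and the log2 fold change was 1.15 ± 0.21 (edgeR adjusted p = 0.011). It was between 1.05 and 1.26 with each library left out, and the edgeR adjusted p was 0.14 without H1-TKO library 1 and 0.16 without H1-TKO library 2. The other 7 trophectoderm markers summed to 168 and 173 CPM in H1-TKO libraries, against 91.2 and 115 CPM in H1-WT libraries, with Elf5 at 0 counts in both H1-TKO libraries and in H1-WT library 2. Of 7 tested trophectoderm markers, Eomes among them, 3 rose and 1 fell in H1-TKO cells, beside 8.59% and 8.43% over all genes. Apart from Eomes, those that rose were the keratins Krt8 (mean 54.7 CPM in H1-TKO, 17.0 CPM in H1-WT libraries) and Krt18 (76.4 and 6.72 CPM). The 1 that fell was Tfap2c (37.0 and 77.6 CPM). Of those not called, Cdx2 lay lower and Gata3 and Hand1 higher in H1-TKO cells. The part of the other markers in the Eomes value was not tested.

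Gsc had 0.799 and 1.08 CPM in H1-TKO libraries, against 1.54 and 3.14 CPM in H1-WT libraries. Its groups did not overlap, but the controls were spread over a wide range, and the log2 fold change of -1.31 ± 0.51 missed the threshold (edgeR adjusted p = 0.13). Without H1-WT library 1 it was -1.72 (edgeR adjusted p = 0.0012), and with all 8 libraries in 1 fit the adjusted p was 0.034. Without H1-WT library 2 it was -0.71 (edgeR adjusted p = 0.31), and without H1-TKO library 1 or 2 the edgeR adjusted p was 0.49 and 0.31. Mixl1 had 0.593 and 1.39 CPM in H1-TKO libraries, against 2.72 and 2.77 CPM in H1-WT libraries, with a log2 fold change of -1.45 ± 0.50 that missed the threshold (edgeR adjusted p = 0.091). Without H1-WT library 1 or 2 the edgeR adjusted p of Mixl1 was 0.0091 and 0.018, and without the filter 0.024. Without H1-TKO library 1 its log2 fold change was -1.005 (edgeR adjusted p = 0.52), and without H1-TKO library 2 it was -2.21 (0.068).

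The remaining members had at most 29 counts in any library of the H1 table. Tbx6 had 29 and 6 counts in H1-TKO libraries, against 11 and 7 counts in H1-WT libraries (log2 fold change 1.20 ± 1.09, edgeR adjusted p = 0.49). H1-TKO library 2 lay below both controls in CPM, and without H1-TKO library 1 the log2 fold change was -0.80. Evx1 had 2 and 21 counts in H1-TKO libraries, against 5 and 0 counts in H1-WT libraries. Foxa2 had 0 and 11 counts in each group. Mesp1 had 8 and 1 counts in H1-TKO libraries, against 0 counts in both H1-WT libraries, which is at least 3.08-fold higher against a floor of 3 counts over the group, a bound that rests on H1-TKO library 1. Lhx1 had 0 counts in both H1-TKO libraries, against 1 and 0 counts in H1-WT libraries, so that no fold is given.

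**Figure D4:**
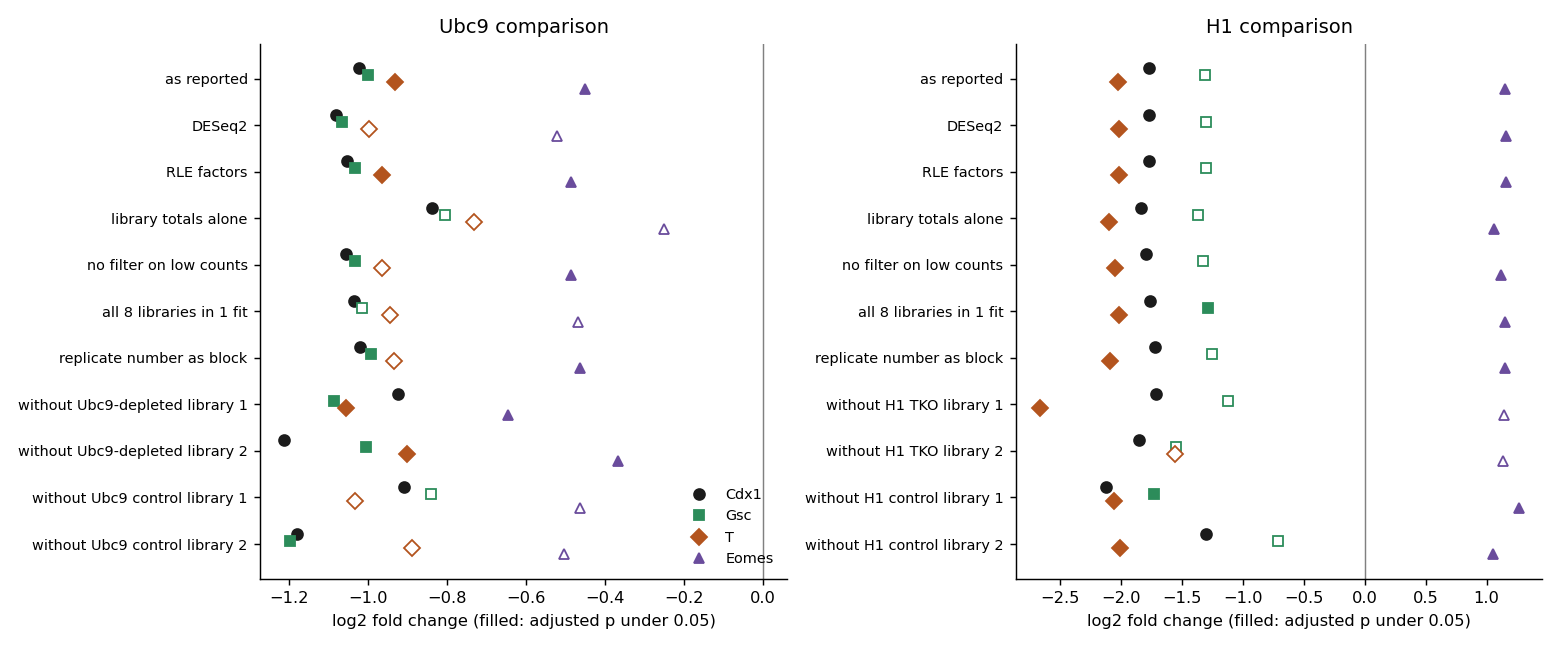
Log2 fold change (horizontal axis) of Cdx1, Gsc, T and Eomes in the Ubc9 (left) and H1 (right) comparison, as reported and under each other setting (rows), filled where the adjusted p is under 0.05. The direction of all 4 genes is the same in every row of a panel, and Cdx1 is filled in every row of both.

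The effects of the 2 perturbations were then set against each other in 1 fit of all 8 libraries. The difference, the Ubc9 effect minus the H1 effect, passed the threshold for Eomes alone among 9 tested members. Of all 16974 tested genes 14.5% passed (same edgeR test and adjustment). This test was tried on simulated data with 200 changed genes, where 2464 passed in the real data. There it recovered 9% of planted 2-fold and 59% of planted 4-fold changes, shares that need not hold for the real data. A difference that missed the threshold is thus not shown to be absent. For Eomes the difference was -1.62 ± 0.25 on the log2 scale (edgeR adjusted p = 0.0018), and it passed under each of the 12 other settings run. For T the difference was 1.07 ± 0.52 (edgeR adjusted p = 0.19), for Cdx1 0.72 ± 0.34 (0.18) and for Gsc 0.27 ± 0.53 (0.78). The larger falls of T and Cdx1 in H1-TKO cells were thus not shown to differ from those in Ubc9-depleted cells. For Mixl1, whose log2 fold changes had opposite signs, it was 1.83 ± 0.70 (edgeR adjusted p = 0.11), or 0.037 and 0.046 without H1-TKO library 2 or H1-WT library 2. Without H1-WT library 1 Cdx1 also passed (edgeR adjusted p = 8.8e-06).

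Genes with profiles most like those of the members were sought by the Euclidean distance between log2(CPM + 1) values centred within each table, over 8 libraries and 10854 genes with at least 1 CPM in each. Eomes and Cdx1 were the members that reached this level in all 8 libraries. Nearest to Eomes were Ank (distance 0.276), Slc35g1 (0.286) and Fam213a (0.296), and nearest to Cdx1 were Vwf (0.294), Ucp2 (0.309) and Rgma (0.310). Ank had log2 fold changes of -0.47 in Ubc9-depleted and 1.22 in H1-TKO cells, and Vwf had -0.83 and -1.79.

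Signals and pathway parts that act upstream of the streak factors were described from a list of 20 genes. After Ubc9 depletion 9 of 19 tested genes fell and 1 rose, beside 15% and 21.1% over all genes, and the median log2 fold change was -0.45 (-0.27 on library totals). The Nodal inhibitors Lefty2 and Lefty1 fell by 3.31 ± 0.13 and 2.20 ± 0.57 on the log2 scale, and Sp5, a transcription factor induced by Wnt, fell by 1.37 ± 0.13. Fgf8, a growth factor of the streak, had 98 and 47 counts in Ubc9-depleted libraries, against 7 and 11 counts in Ubc9-WT libraries (log2 fold change 3.04 ± 0.93, edgeR adjusted p = 0.012). With each library left out in turn, the median lay between -0.45 and -0.32 over the genes then tested. In such fits, here and below, the number of calls moved with that over all genes, so it is not given for the lists. Without Ubc9-WT library 1 or 2, Fgf8 and Lefty1 lost their calls. Fgf8, which passed the filter on low counts through the Ubc9-depleted libraries, also lost its call without the filter (edgeR adjusted p = 0.052) and with all 8 libraries in 1 fit (0.14).

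In H1-TKO cells 3 of 18 tested signalling genes fell and 1 rose, beside 8.43% and 8.59% over all genes, with a median of -0.06. Lefty2 fell to 2.97 and 4.16 CPM in H1-TKO libraries, against 59.6 and 47.6 CPM in H1-WT libraries, a log2 fold change of -3.90 ± 0.28 (edgeR adjusted p = 5.5e-04). Lefty1 and the growth factor Fgf4 fell by 1.24 ± 0.31 and 1.00 ± 0.18, and Tcf7l1, a repressor of Wnt target genes, rose by 1.24 ± 0.32 on the log2 scale. Without H1-TKO library 1 or 2 the edgeR adjusted p was 0.22 and 0.30 for Lefty1, 0.23 and 0.32 for Fgf4, and 0.15 and 0.084 for Tcf7l1. The median of the signalling genes lay between -0.13 and -0.073 with each library left out in turn.

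Later mesoderm and endoderm regulators, a list of 24 genes, went both ways. After Ubc9 depletion 9 of 23 tested genes rose and 4 fell, beside 21.1% and 15% over all genes, with a median log2 fold change of 0.36. The 9 include Foxf1, which passed the filter on low counts through the Ubc9-depleted libraries, so nothing is read from that count. Nkx1-2, a homeobox gene of the caudal epiblast, fell by 2.67 ± 0.33 on the log2 scale. Mesp2, the neighbour of Mesp1 that acts in somite segmentation, had 131 and 90 counts in Ubc9-depleted libraries, against 28 and 20 counts in Ubc9-WT libraries (log2 fold change 2.29 ± 0.72, edgeR adjusted p = 0.014). Foxf1, a forkhead factor of lateral mesoderm, and Tbx1, a T-box factor of the pharyngeal region, had log2 fold changes of 3.28 ± 1.19 and 2.16 ± 0.78 (edgeR adjusted p = 0.032 and 0.031). Foxf1 had 73 and 9 counts in Ubc9-depleted libraries, against 2 and 6 counts in Ubc9-WT libraries, and like Foxa2 it passed the filter through the Ubc9-depleted libraries. Its edgeR adjusted p was 0.34 without Ubc9-depleted library 1. The median of the later regulators lay between 0.30 and 0.48 with each library left out in turn. Mesp2, Foxf1 and Tbx1 lost their calls without Ubc9-WT library 1 or 2. Over the 10 other settings, the call of Foxf1 was lost in 8, that of Tbx1 in 6 and that of Mesp2 in 2.

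In H1-TKO cells 3 of 22 tested later regulators rose and 2 fell, beside 8.59% and 8.43% over all genes, with a median log2 fold change of 0.08 that was -0.0069 with scaling by totals. Nkx1-2 fell by 4.78 ± 0.28 on the log2 scale, to 0.890 and 0.717 CPM in H1-TKO libraries, against 22.4 and 21.6 CPM in H1-WT libraries. Snai1, which represses E-cadherin when cells leave the epithelium, had 34.5 and 39.7 CPM in H1-TKO libraries, against 0.640 and 2.44 CPM in H1-WT libraries (log2 fold change 4.60 ± 0.56, edgeR adjusted p = 0.0026). Zic2, a zinc finger factor, fell by 1.52 ± 0.22 on the log2 scale. Without H1-TKO library 1 the edgeR adjusted p of Zic2 was 0.083. With each library left out in turn, the median of the later regulators lay between 0.0095 and 0.21.

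**Figure D5:**
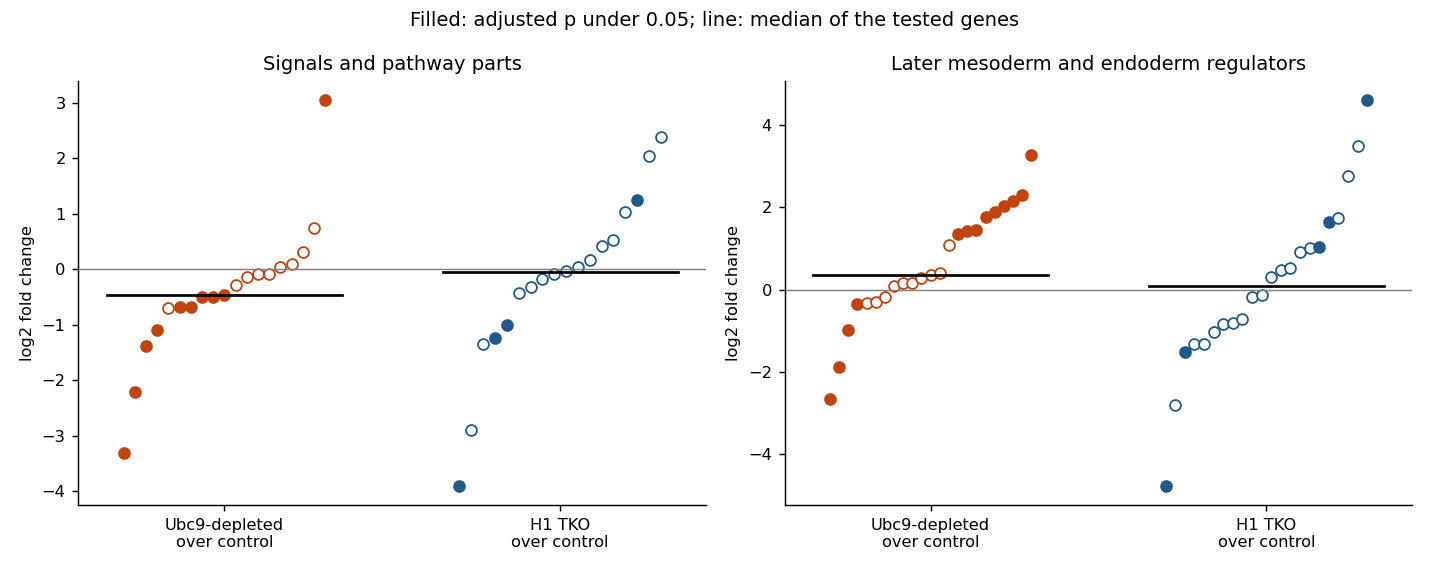
Log2 fold change (vertical axis) of each tested gene of the signalling list (left) and of the later regulators (right), ordered by value within Ubc9-depleted over control and H1 TKO over control, filled where the adjusted p is under 0.05, with the median as a line. The signalling median lies at -0.45 after Ubc9 depletion and at -0.06 in H1-TKO cells.

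Markers of other cell types that the cultures could hold gave the following values beside these results. The 10 primitive endoderm markers, of which Gata4, Gata6 and Sox17 are also later regulators, summed to 102 and 103 CPM in Ubc9-depleted libraries, against 123 and 111 CPM in Ubc9-WT libraries. Lama1, the highest of them, had 34.6 and 41.3 CPM in Ubc9-depleted libraries, against 70.8 and 61.3 CPM in Ubc9-WT libraries. The lower sum therefore does not speak for the other markers. Of 9 tested, 5 rose and 1 fell after Ubc9 depletion, beside 21.1% and 15% over all genes. The 5 include Foxq1, with 125 and 13 counts in Ubc9-depleted libraries, against 8 and 13 counts in Ubc9-WT libraries. Its pass through the filter on low counts needed a Ubc9-depleted library, so nothing is read from the count of 5. That count was not repeated with a library left out. In the H1 table the primitive endoderm markers summed to 68.3 and 62.5 CPM in H1-TKO libraries, against 66.3 and 64.0 CPM in H1-WT libraries. There 1 of 9 tested rose, beside 8.59% over all genes. The 10 fibroblast markers, which include Fn1 and Vim that stem cells also express, summed to 1820 and 2157 CPM in Ubc9-depleted libraries, against 2491 and 2412 CPM in Ubc9-WT libraries, while 5 of 10 rose and 1 fell, beside the same 21.1% and 15%. Among these, the matrix gene Postn had 288 and 269 counts in Ubc9-depleted libraries, against 96 and 100 counts in Ubc9-WT libraries. Most of the summed CPM was Fn1, with 1724 and 2044 CPM in Ubc9-depleted libraries, against 2374 and 2285 CPM in Ubc9-WT libraries. In the H1 table the fibroblast markers summed to 1163 and 1135 CPM in H1-TKO libraries, against 1171 and 1350 CPM in H1-WT libraries, 2 of 5 tested fell, beside 8.43% over all genes, and Postn was at 0 counts in all 4 libraries. The part of these markers in the rise of Foxa2 and of later regulators after Ubc9 depletion was not tested.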

How the data were processed

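The authors deposited raw counts per gene symbol, 4 libraries to a table. The submitters' processing notes name cutadapt, STAR, HTSeq, DESeq2 and mm10, and the sources used here do not give their roles, versions, annotation or strand setting. Libraries, per the labels, were made with ScriptSeq v2 (Ubc9) and Lexogen SENSE V2 (H1) kits. Each table was fitted on its own with edgeR 4.0.16 in R 4.3.3, which tested genes kept by filterByExpr (at least 10 counts, total at least 15) with TMM scaling by the quasi-likelihood F test. P-values were adjusted after Benjamini and Hochberg, with a threshold of 0.05, over 16499 (Ubc9) and 14800 (H1) genes. The SE of a log2 fold change is its size divided by the square root of F. The difference of effects was fitted over all 8 libraries. Other settings were DESeq2 1.42.0, RLE factors, library totals, no filter, all 8 libraries, a replicate block and each library left out. The edgeR fits were tested on simulated data with 200 changed genes. There 7.98% (Ubc9) and 8.13% (H1) of calls were false, and 73% and 31% of 2-fold changes were recovered. The members and lists were chosen with earlier results of these data known. Named genes were all members, up to 4 called genes per list and comparison with the largest changes, the overlapping and nearest genes, and the genes deleted in H1-TKO cells. Some genes that this rule names are not reported here. In the counts, 23376 of 24421 symbols matched GENCODE M21 by name.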

Additional observations from a re-analysis of the deposited data

Results flagged for a closer look

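Eomes was called lower in Ubc9-depleted cells and higher in H1-TKO cells, and the difference between these effects was itself past the threshold. The Ubc9 effect minus the H1 effect was -1.62 on the log2 scale (edgeR adjusted p = 0.0018). Both Ubc9-depleted libraries lay below both of their controls, and both H1-TKO libraries lay above both of theirs. The 2 effects came from different cell lines and library kits, and their part in the difference cannot be told apart from that of the perturbations.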

How the results depend on the processing

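Of 417 repeats of single-gene results, 336 kept direction and side of the threshold, 57 lost the call, 10 gained it and 14 changed sign. The 417 include results not called to begin with, which could not lose a call. Over the 10 other settings after Ubc9 depletion, Foxa2 lost its call in 8, T in 7, Eomes in 5 and Gsc in 3. In H1-TKO cells Eomes lost its call in 2 and T in 1. The causes were not tested. Cdx1 was called lower in every setting of both comparisons, with Ubc9 log2 fold changes between -1.21 and -0.91 with a library left out. With library totals alone 1084 genes were lower after Ubc9 depletion, 0 members higher and 1 lower. With all 8 libraries in 1 fit 1100 genes were higher and 483 lower after Ubc9 depletion (0 members higher, 1 lower), and 2205 and 2158 in H1-TKO cells. Without the filter 0 members were higher after Ubc9 depletion, and 1895 genes were lower in H1-TKO cells. DESeq2 called 2 members lower after Ubc9 depletion, and Lhx1 in place of Foxa2 higher.

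The replicate numbers were not shown to pair libraries: deviations of same-numbered libraries correlated at -0.010 (Ubc9) and 0.20 (H1). With the replicate block 0 members were higher and 3 lower after Ubc9 depletion, T and Foxa2 having adjusted p = 0.055 and 0.086 (edgeR), and 1 higher and 3 lower in H1-TKO cells, Mixl1 gaining its call.

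With each library left out in turn, genes higher and lower numbered 1230 to 8428 and 795 to 4610 after Ubc9 depletion, and 617 to 3994 and 488 to 4038 in H1-TKO cells. A lone library was assumed to vary like the other group. Members higher and lower numbered 0 to 4 and 1 to 4 after Ubc9 depletion, and 0 to 1 and 1 to 4 in H1-TKO cells. The difference of effects passed for 1285 to 6145 genes and 1 to 2 members.

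Sign changes were confined to uncalled values. In DESeq2 Tbx6 had -0.012 after Ubc9 depletion, and with totals the Evx1 difference was 0.17. With a library left out the log2 values ran from -0.0012 to 0.62 for Mixl1 and -0.18 to 0.26 for Tbx6 after Ubc9 depletion, -0.80 to 2.05 for Tbx6 in H1-TKO cells, and for the difference of effects from -2.95 to 1.98 for Mesp1, -0.32 to 0.65 for Gsc, -2.92 to 9.0 for Foxa2, -5.09 to 1.77 for Evx1 and -2.02 to 0.77 for Tbx6. Depth limits Mesp1, Lhx1, Foxa2 and Evx1, which lay at or near 3 counts in the controls of at least 1 table.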
